A study of Mus musculus with 12 samples.

Results

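Laminin and integrin subunits are the 37 genes whose symbols name a laminin alpha, beta or gamma chain, or a numbered or lettered integrin alpha or beta subunit, among 24421 genes in each deposited table. They comprise 11 laminin chains, 18 integrin alpha subunits and 8 integrin beta subunits, chosen by symbol and not by level. Their RNA was measured by sequencing of polyA libraries from 12 mouse bulk tissue samples in 4 groups of 3. The cortex group is wild-type, non-tumour cortex. The control group is ependymoma with the genotype ZFTA-RELA, a fusion found in human ependymoma, with no further gene added. The ETV5 group is the ZFTA-RELA tumour with human ETV5, an ETS family transcription factor, overexpressed. The NPY group is the ZFTA-RELA tumour with human NPY, the neuropeptide Y precursor, overexpressed. All 9 tumours therefore carry ZFTA-RELA, and the cortex does not. The labels give no strain, age, sex, promoter, vector or pooling, and leave unsaid whether the replicates are separate animals, so the p-values cover only the spread among these libraries, which may be technical.

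Laminins are secreted trimers of 1 alpha, 1 beta and 1 gamma chain that polymerise into basement membranes around vessels, under the meninges and at the ends of glial processes. Integrins are membrane receptors of 1 alpha and 1 beta subunit that bind laminin, collagen, fibronectin or counter-receptors on other cells and link them to actin. In the brain, laminins of the vessel wall are made mostly by endothelial cells, pericytes, astrocytes and meningeal cells, and the integrins that pair with the beta 2 subunit belong to leukocytes and microglia.

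Depth was 5962376 to 7444467 reads per library in cortex, 6266613 to 9443466 in control, 6691146 to 11291057 in ETV5 and 8214523 to 10481943 in NPY tumours. Levels are CPM, reads scaled to a common library total. Summed pan-neuronal markers ran from 8336 to 8981 CPM in cortex, 618 to 1340 in control, 255 to 909 in ETV5 and 99.5 to 238 in NPY tumours. Of 6 markers of motile cilia and ependyma, 5 were lower in control tumours than in cortex and 0 were higher, with sums of 15.5 to 21.9 against 42.1 to 57.9 CPM. By the same test, 36.2% of all genes tested were lower and 35.7% higher. Reads at the mouse Etv5 and Npy genes are no direct measure of the human genes added. Whether reads of the human genes were counted there was not tested. Mouse Etv5 stood at 264 to 322 CPM in control and 401 to 474 in ETV5 tumours, and mouse Npy at 21.5 to 46.1 in control and 2.19 to 15.9 in NPY tumours. The library codes begin with DS for cortex, control and ETV5 replicates 1 and 2, and with EC for ETV5 replicate 3 and all NPY libraries. In bulk samples, fewer cells of a type and less RNA per cell cannot be told apart.

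The 250 bases before the start of 4 members show the sequence upstream of some of the most abundant members in the tumours. By the mean level per kilobase in each tumour group, Itga5 and Itgb1 were the most abundant integrin alpha and beta subunits. On the same scale, Lama5 was the most abundant laminin alpha chain and Itgam the most abundant leukocyte integrin. Single libraries could differ in this order. The sequences are from RefSeq (GRCm38.p6, the build mm10), which held 26 such windows for 23 of the 37 members. Capitals mark every match on either strand to the motifs searched.
Itga5 (chr15:103366792-103367041, minus strand): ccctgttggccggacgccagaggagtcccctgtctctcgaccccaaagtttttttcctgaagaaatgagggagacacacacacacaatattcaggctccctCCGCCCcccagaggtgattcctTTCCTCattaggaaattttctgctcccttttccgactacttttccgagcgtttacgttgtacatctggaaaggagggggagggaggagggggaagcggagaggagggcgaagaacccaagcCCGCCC
Itgb1 (chr8:128685404-128685653, plus strand): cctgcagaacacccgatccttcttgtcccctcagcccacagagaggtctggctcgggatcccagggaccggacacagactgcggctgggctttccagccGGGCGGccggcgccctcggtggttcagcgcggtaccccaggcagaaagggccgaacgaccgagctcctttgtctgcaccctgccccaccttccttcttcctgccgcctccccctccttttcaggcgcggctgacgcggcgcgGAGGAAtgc
Lama5 (chr2:180225860-180226109, minus strand): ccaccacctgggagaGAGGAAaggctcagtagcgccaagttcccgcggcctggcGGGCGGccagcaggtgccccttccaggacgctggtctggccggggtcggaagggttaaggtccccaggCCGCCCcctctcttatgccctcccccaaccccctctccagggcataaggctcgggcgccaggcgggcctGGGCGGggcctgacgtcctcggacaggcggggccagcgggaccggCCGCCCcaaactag
Itgam (chr7:128062390-128062639, plus strand): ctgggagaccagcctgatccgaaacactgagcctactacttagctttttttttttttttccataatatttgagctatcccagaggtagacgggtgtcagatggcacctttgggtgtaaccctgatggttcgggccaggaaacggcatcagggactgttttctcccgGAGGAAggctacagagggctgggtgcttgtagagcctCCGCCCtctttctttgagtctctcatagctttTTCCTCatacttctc

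The motifs were the NF-kB consensus, the ETS core CCGGAA, the PU.1-type ETS core GAGGAA, the AP-1 site TGANTCA, the GC box GGGCGG, the TATA box TATAAA and the reverse complement of each. The first ETS core shares its last letters with the PU.1-type core, and neither holds the other. The capitals in these 4 windows are the GC box or the PU.1-type core. The PU.1-type core occurred in 13 of the 26 windows of members (50%) and in 23.3% of all 32851 windows. Some of these windows belong to starts far from the annotated start of the gene. For Lamb3, Itgb6, Itga3 and Lama2 the distance was 94295, 48950, 7603 and 2816 bases. The first 3 of these genes each had a further window without this core. The GC box occurred in 9 (34.6%), against 32.7% of all windows. The NF-kB consensus, the first ETS core and the AP-1 site each occurred in 1 window of the members (3.85%), against 3.9%, 12% and 6.75% of all windows. The TATA box occurred in 0 of 26, against 12.4% of all. The median GC content was 58% in these windows and 52.4% in all. A match describes the letters only and is not evidence of binding.

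**Figure D1:**
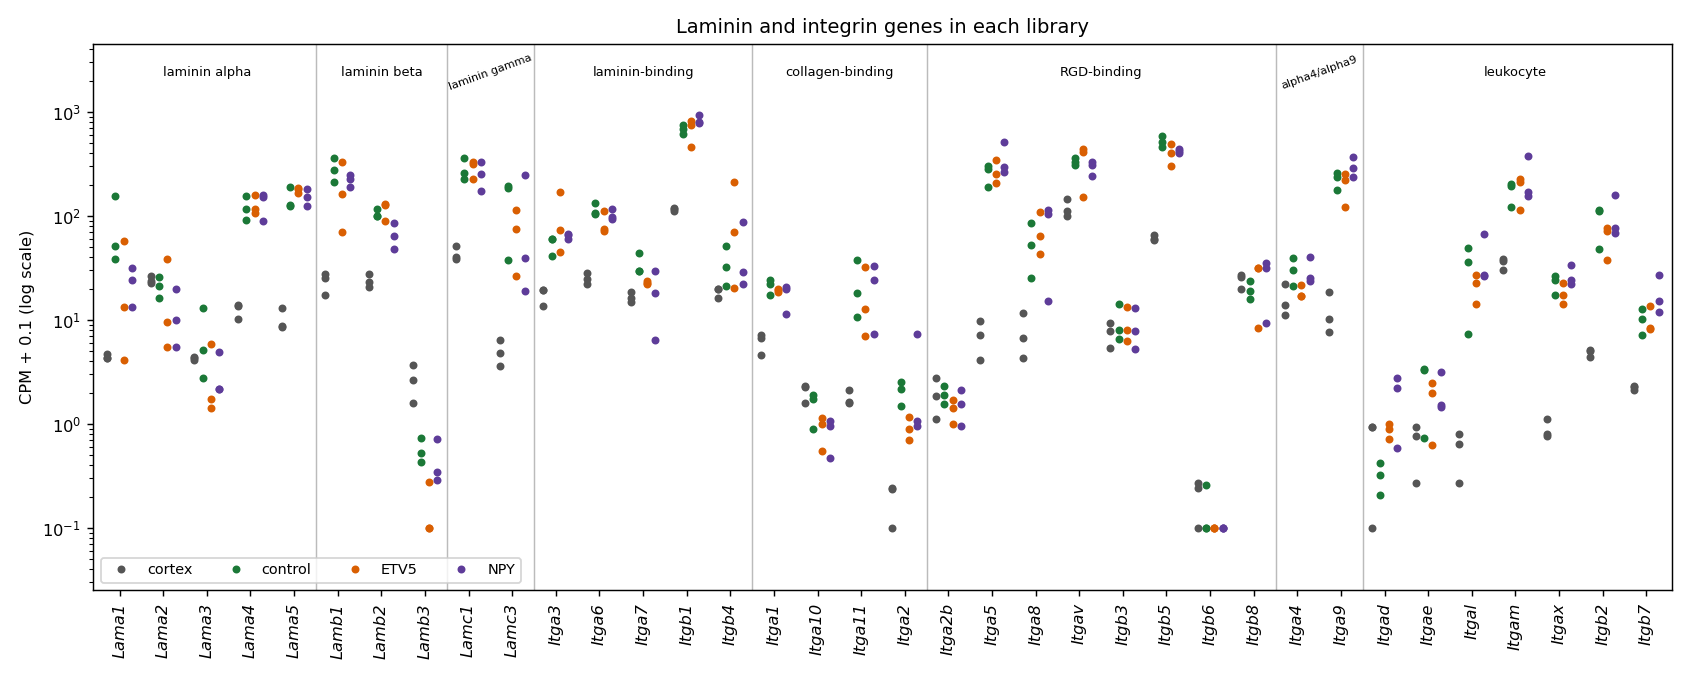
Level of the members, except 1 not reported here, in each of the 12 libraries, as CPM plus 0.1 on a log axis, grouped by role, with 1 point per library. Of 34 members tested, 25 sit higher in control tumours than in cortex and Lamb3 sits lower, and the points of the 3 tumour groups overlap for most genes.

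The first comparison, control tumours against cortex, asks how the tumour differs from normal brain tissue. Of the 37 members, 34 passed the filter on low reads, 25 of them rose and 1, Lamb3, fell, by limma with Benjamini-Hochberg adjusted p under 0.05. The background was wide: 35.7% of all 14621 genes tested were called higher and 36.2% lower in this comparison, and 72% in either direction. The members' share called higher was 73.5%, and called lower 2.94%. Their median log2 fold change was 2.05, and that of all genes tested was -0.003. Of the 25 that rose, 23 did so by at least 2-fold, 18 by at least 4-fold and 9 by at least 10-fold. The 2 groups did not overlap, with control higher, for 25 members (43.8% of all genes tested), and with control lower for 1 (33.6%). Of the 34 tested, 6 reached the read minimum of the filter in all libraries of just 1 group: Itga2, Itgal, Itgax, Itga10, Itga2b and Lamb3. A gene that is tested because it is high in 1 group tends to differ, so the calls of Itga2, Itgal, Itgax and Lamb3 are not independent of the filter. Of the other 28, 22 rose and 0 fell, and of all 12570 genes that met the minimum in the same way, 32.6% were called higher and 36.3% lower.

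**Figure D2:**
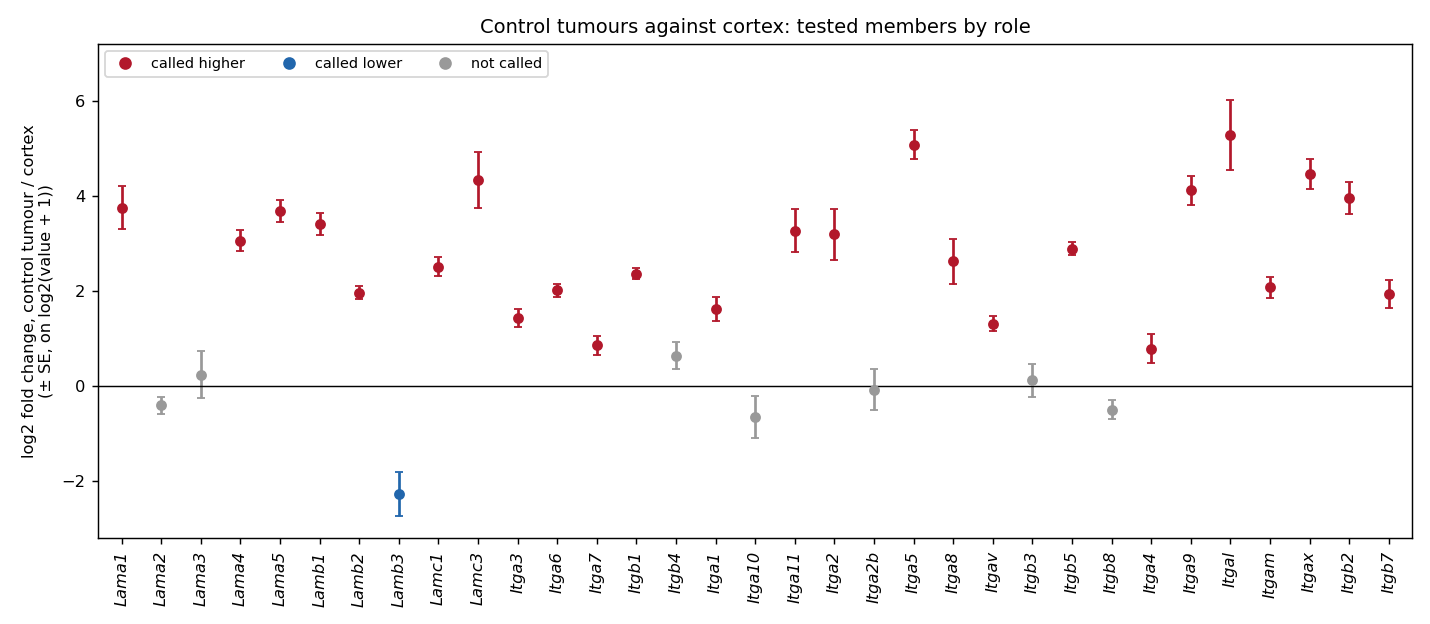
Log2 fold change of control tumours over cortex for 33 of the 34 tested members, with bars of 1 SE and 3 libraries a group. The 25 members called higher lie above 0, from Itga4 at 0.79 to Itgal at 5.29, and Lamb3 lies at -2.27.

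Of the 5 laminin alpha chains, 3 rose and 0 fell. Lama5 (chromosome 2, 180176373 to 180225859, minus strand), the broadly expressed chain of mature vessel basement membranes, was at 12.9, 8.55 and 8.49 CPM in cortex and 127, 190.4 and 124 in control tumours. Its log2 fold change was 3.69 (SE 0.23, limma, adjusted p = 2.9e-06). Lama4 (chromosome 10, 38965515 to 39110188, plus strand), the endothelial chain, was at 13.6, 13.9 and 10.2 CPM in cortex and 91.1, 155 and 117 in control tumours, 8.37-fold higher (adjusted p = 6.04e-06). In both genes the lowest tumour library was several-fold above the highest cortex library. Lama1 (chromosome 17, 67697259 to 67822647, plus strand), the chain of early embryonic basement membranes, was at 4.16, 4.19 and 4.59 CPM in cortex and 154, 51.6 and 38.1 in control tumours. The cortex libraries lay close together, while control replicate 1 stood well above the other 2 tumours. Its fold was 13.5 (log2 3.75, SE 0.45, adjusted p = 0.0001), and the log2 value was 3.15 without control replicate 1. Lama2 (chromosome 10, 26980036 to 27619758, minus strand), the chain of muscle and of the glial side of the vessel wall, was at 26.2, 22.5 and 23.7 CPM in cortex and 21.3, 16 and 25.7 in control tumours. These groups overlapped, and the difference did not pass (log2 -0.4, 95% interval -0.81 to 0.01, adjusted p = 0.076). Lama3, an epithelial chain, was at 4.04 to 4.3 CPM in cortex and 2.65 to 12.9 in control tumours, and was not called either.

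Of the 3 beta chains, 2 rose and 1 fell. Lamb1 (chromosome 12, 31265234 to 31329644, plus strand), a beta chain found in most basement membranes, was at 27.3, 17.3 and 24.9 CPM in cortex and 275, 359 and 210.3 in control tumours. That was 10.7-fold higher, with no overlap (adjusted p = 4.34e-06). Lamb2 (chromosome 9, 108479736 to 108490530, plus strand), the chain of synaptic and vascular laminins, was at 27.7, 23.1 and 20.7 CPM in cortex and 100.4, 99 and 116 in control tumours, 3.91-fold higher (adjusted p = 4.5e-06). Lamb3 (chromosome 1, 193207699 to 193343878, plus strand), a chain of epithelial basement membranes, was the member that fell. It was at 1.48, 2.52 and 3.62 CPM in cortex and 0.424, 0.33 and 0.638 in control tumours, which together held 11 reads. It fell by 2.27 on the log2 scale (SE 0.47, adjusted p = 0.00223), and it passed the filter through the cortex libraries alone. Exons of Lamb3 in the annotation overlap Hsd11b1, which encodes a glucocorticoid-activating enzyme, on the opposite strand. Hsd11b1 was at 38.1, 32.7 and 30.8 CPM in cortex and 6.67, 2.86 and 3.99 in control tumours. Both genes were lower in every control library than in every cortex library. Among the cortex libraries, Hsd11b1 was highest in replicate 1, where Lamb3 was lowest. Whether reads of Hsd11b1 were counted for Lamb3 was not tested, since the strand setting of the counting is not given in the sources used here.

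Among gamma chains, Lamc1 and Lamc3 rose. Lamc1 (chromosome 1, 153218922 to 153332786, minus strand), the gamma chain of most laminin trimers, was at 50.9, 39.7 and 38.3 CPM in cortex and 261, 357 and 225 in control tumours, 5.72-fold higher (adjusted p = 8.99e-06). Lamc3 (chromosome 2, 31887291 to 31946539, plus strand), a chain described in cortical and retinal basement membranes, was at 6.31, 3.52 and 4.73 CPM in cortex and 192, 186 and 37.3 in control tumours. Control replicate 3 was far below the other 2 tumours and still above all cortex libraries. The log2 fold change was 4.34 (SE 0.59, adjusted p = 0.000208), and 5.14 without control replicate 3.

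The make-up of the chains differed between the groups when levels were taken per kilobase of the gene's exons, as mean ± SD over 3 libraries. In cortex, Lama2 was the largest alpha chain at 35% ± 2 of the alpha total, before Lama4 at 24.6% ± 3.26 and Lama5 at 20.5% ± 3.15. In control tumours, Lama5 held 38.9% ± 7.64, Lama4 30.6% ± 8.41, Lama1 24.4% ± 17 and Lama2 4.02% ± 1.58. The share of Lama2 was lower in every control library than in every cortex library. Among beta chains, the Lamb1 share was 34.9% ± 4.93 in cortex and 61.3% ± 8.28 in control tumours, again with no overlap. In ETV5 and NPY tumours, Lama5 held 53.2% ± 9.81 and 48.5% ± 5.24, and Lama1 7.46% ± 7.23 and 8.77% ± 3.78. ETV5 replicate 2 was the 1 tumour library in which Lamb2 exceeded Lamb1, with a Lamb1 share of 25.1% of the beta chains.

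**Figure D3:**
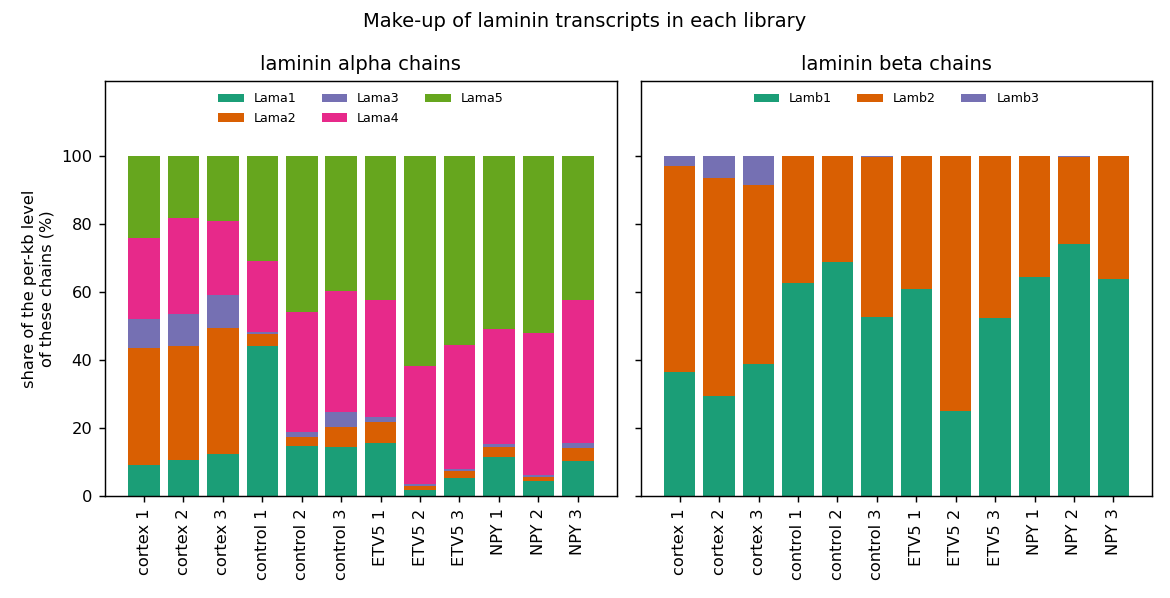
Share of each alpha (left) and beta (right) chain in the summed per-kilobase level of its laminin class, in percent, with 1 stacked bar per library. Lama2 is the largest alpha chain in the 3 cortex bars, and Lama5 or, in control replicate 1, Lama1 is the largest in the tumour bars.

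Markers of the cells of vessels and meninges moved with the laminins, in a comparison where 35.7% of all genes tested rose and 36.2% fell. Of 9 endothelial markers 8 rose, with sums of 84.9 to 129 CPM in cortex and 370 to 512 in control tumours. Of 10 markers of pericytes and smooth muscle 8 rose, with sums of 108 to 132 CPM in cortex and 447 to 528 in control tumours. Of 8 markers of meningeal fibroblasts 6 rose and 1 fell, with sums of 203 to 245 CPM in cortex and 2313 to 3124 in control tumours. No marker of the 3 lists was at 0 in either group, and the part of these cells in the laminin changes was not tested.

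All but 1 of the 5 subunits of laminin-binding integrins rose. Itgb1 (chromosome 8, 128685654 to 128733200, plus strand), the beta subunit shared by laminin, collagen and fibronectin receptors, was at 116, 120.1 and 112 CPM in cortex and 678, 740.2 and 613 in control tumours. Replicates lay close together in both groups, and the log2 fold change was 2.37 (SE 0.12, adjusted p = 1.33e-06). Itga6 (chromosome 2, 71745616 to 71858416, plus strand), a main laminin receptor subunit, was at 28.2, 24.7 and 22 CPM in cortex and 104, 108 and 132 in control tumours, 4.05-fold higher (adjusted p = 4.25e-06). Itga3 (chromosome 11, 95044474 to 95076801, minus strand), which favours laminins with the alpha 3 or alpha 5 chain, was at 19.3, 13.4 and 19.2 and 59.4, 40.8 and 59.4 CPM, 2.71-fold higher (adjusted p = 0.000183). These groups did not overlap. Itga7 (chromosome 10, 128933818 to 128958282, plus strand), the muscle laminin receptor subunit, was at 18.5, 14.8 and 16.1 and 29.7, 43.7 and 29.5 CPM, 1.82-fold higher (adjusted p = 0.00454). Itgb4 (chromosome 11, 115974709 to 116008412, plus strand), the Itga6 partner of hemidesmosomes, was at 19.9, 16.3 and 19.9 and 51.8, 21 and 32.2 CPM. Its groups did not overlap, yet it did not pass (log2 0.64, 95% interval -0.02 to 1.3, adjusted p = 0.0735).

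Of the 4 alpha subunits of collagen receptors, 3 rose. Itga1 (chromosome 13, 114953096 to 115101964, minus strand), found on vessels and fibroblasts, was at 7.12, 6.54 and 4.45 CPM in cortex and 22.1, 23.9 and 17.4 in control tumours, 3.1-fold higher (adjusted p = 0.000422). Itga11 (chromosome 9, 62677826 to 62783982, plus strand), a fibroblast collagen receptor, was at 1.48, 2.01 and 1.53 and 10.5, 37.2 and 18.2 CPM, 9.66-fold higher (adjusted p = 0.000211). The tumours were above the cortex in both, with a wide spread for Itga11. Itga2 had 2 reads in the 3 cortex libraries together and 48 in the controls, a ratio of CPM of 19.9 with an exact 95% interval of 5.23 to 169 for counting error. Its call (adjusted p = 0.000723) is one of those set in part by the filter, which it passed through the control libraries alone. Itga10 was at 1.48 to 2.23 CPM in cortex and 0.798 to 1.8 in control tumours and did not pass.

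Of the 8 subunits of RGD-binding and related integrins, 7 were tested and 4 rose. Itga5 (chromosome 15, 103344286 to 103366763, minus strand), the fibronectin receptor subunit that pairs with Itgb1, was at 7.12, 4.03 and 9.61 CPM in cortex and 305, 282 and 190.1 in control tumours. Its log2 fold change was 5.08 (SE 0.31, adjusted p = 2.5e-06). Itgb5 (chromosome 16, 33829665 to 33949338, plus strand), a vitronectin receptor subunit, was at 60.2, 65.9 and 59.2 CPM in cortex and 592, 509 and 457 in control tumours, 7.42-fold higher (adjusted p = 1.04e-06). Both genes separated the groups without overlap. Itgav (chromosome 2, 83724397 to 83806916, plus strand), the partner of several beta subunits, was at 100.3, 146 and 111 and 327, 306 and 361 CPM, 2.5-fold higher (adjusted p = 9.63e-05). Itga8 (chromosome 2, 12106632 to 12301922, minus strand), a nephronectin and fibronectin receptor subunit, was at 11.6, 6.54 and 4.18 and 25, 52.6 and 85.9 CPM, 6.2-fold higher (adjusted p = 0.00108). Itgb8, an activator of latent TGF-beta with Itgav, was at 27.1, 26 and 19.5 CPM in cortex and 15.9, 19 and 23.3 in control tumours. It lay just outside the threshold (log2 -0.49, adjusted p = 0.0514), and its groups overlapped. Itgb3 (adjusted p = 0.77) and its platelet partner Itga2b (adjusted p = 0.884) did not pass, and Itgb6, an epithelial subunit, had at most 1 read in any library.

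Per kilobase, Itgb1 and Itgb5 ranked 1 and 2 of all members in each of the 4 groups. The third place differed: Itgav held it in cortex, at 11.1 ± 2.21 RPKM, the CPM per kilobase of exon (mean ± SD, n = 3), and Itga5 held it in all 3 tumour groups. Itga5 was at 1.4 ± 0.567 on this scale in cortex, 52.5 ± 12.3 in control, 54.1 ± 14.1 in ETV5 and 72.8 ± 27.6 in NPY tumours. Of the summed integrin alpha level, Itga5 made 4.29% ± 1.81 in cortex and 26.2% ± 3.44 in control tumours, and Itgav 33.7% ± 6.35 and 15.8% ± 3.38.

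Both subunits of the alpha 4 and alpha 9 group, which bind VCAM1, fibronectin variants and other ligands, were called higher. Itga9 (chromosome 9, 118606690 to 118901003, plus strand) was at 10.1, 7.55 and 18.4 CPM in cortex and 238, 259 and 177 in control tumours, with no overlap and a fold of 17.4 (adjusted p = 6.08e-06). Itga4 (chromosome 2, 79255426 to 79333123, plus strand), which pairs with Itgb1 or Itgb7 on leukocytes, was at 22, 11.1 and 13.8 CPM in cortex and 30.2, 39.5 and 21.1 in control tumours. Its groups overlapped, and of the 26 calls it was the nearest to the threshold (log2 0.79, adjusted p = 0.0451). The call was lost with all libraries in 1 fit (adjusted p = 0.0515) and without cortex replicate 2 (0.155), cortex replicate 3 (0.119), control replicate 1 (0.091) or control replicate 2 (0.153).

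All 5 tested leukocyte integrins rose. Itgal and Itgax among them passed the filter through the control libraries alone, so their calls are set in part by the filter. Itgam (chromosome 7, 128062640 to 128118491, plus strand), the CD11b subunit of microglia and myeloid cells, was at 36.9, 38.2 and 30.3 CPM in cortex and 201, 193 and 120.3 in control tumours, 4.22-fold higher (adjusted p = 4.69e-05). Itgb2 (chromosome 10, 77530252 to 77565708, plus strand), the CD18 subunit that pairs with Itgam, Itgal and Itgax, was at 4.3, 4.86 and 5.01 CPM in cortex and 114, 111 and 48 in control tumours. That was 15.6-fold higher (adjusted p = 1.25e-05). Neither gene overlapped between the groups, and control replicate 3 was the lowest of the controls in both. Itgal (chromosome 7, 127296260 to 127335138, plus strand), the CD11a subunit of lymphocytes and other leukocytes, was at 0.537, 0.168 and 0.696 CPM in cortex and 36.2, 49.3 and 7.18 in control tumours. Its log2 fold change was 5.29 (SE 0.74, adjusted p = 0.00023), and 6.16 without control replicate 3. The value rests on 10 reads in cortex and on the pseudocount: with a pseudocount of 5 it was 4.38, under the 4.98 of Itga5. That library again stood low, several-fold under the other 2 controls. Itgax (chromosome 7, 128129547 to 128150657, plus strand), the CD11c subunit of dendritic and activated myeloid cells, was at 0.672, 1.01 and 0.696 and 26.5, 24.2 and 17.2 CPM, 22.1-fold higher (adjusted p = 4.54e-06). Itgb7 (chromosome 15, 102215995 to 102231944, minus strand), a homing receptor subunit of lymphocytes and mast cells, was at 2.15, 2.01 and 2.23 and 12.6, 10 and 7.02 CPM, 3.85-fold higher (adjusted p = 0.000433). Itgad and Itgae, leukocyte alpha subunits, did not pass the filter, with at most 3.3 CPM in a cortex or control library.

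Markers of microglia and macrophages moved with these subunits: 10 of 10 rose, against 35.7% of all genes tested. Their summed level was 411 to 467 CPM in cortex and 2778 to 5986 in control tumours, with none at 0. Control replicate 3 had the lowest sum of the controls, 2778, as it had the lowest Itgam, Itgb2, Itgal, Itgax and Itgb7. Lymphocyte markers summed to 1.01 to 1.39 CPM in cortex, where Cd3e, Cd3g and Nkg7 were at 0, and to 20.6 to 105.5 in control tumours. That sum followed the B-lineage gene Cd79a, at 9, 12.5 and 104 CPM in control tumours and 77, 2.43 and 201 in NPY tumours. Among the controls, Cd79a was highest in replicate 3, where Itgal was lowest. The part of these cells in the changes of the subunits was not tested.

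**Figure D4:**
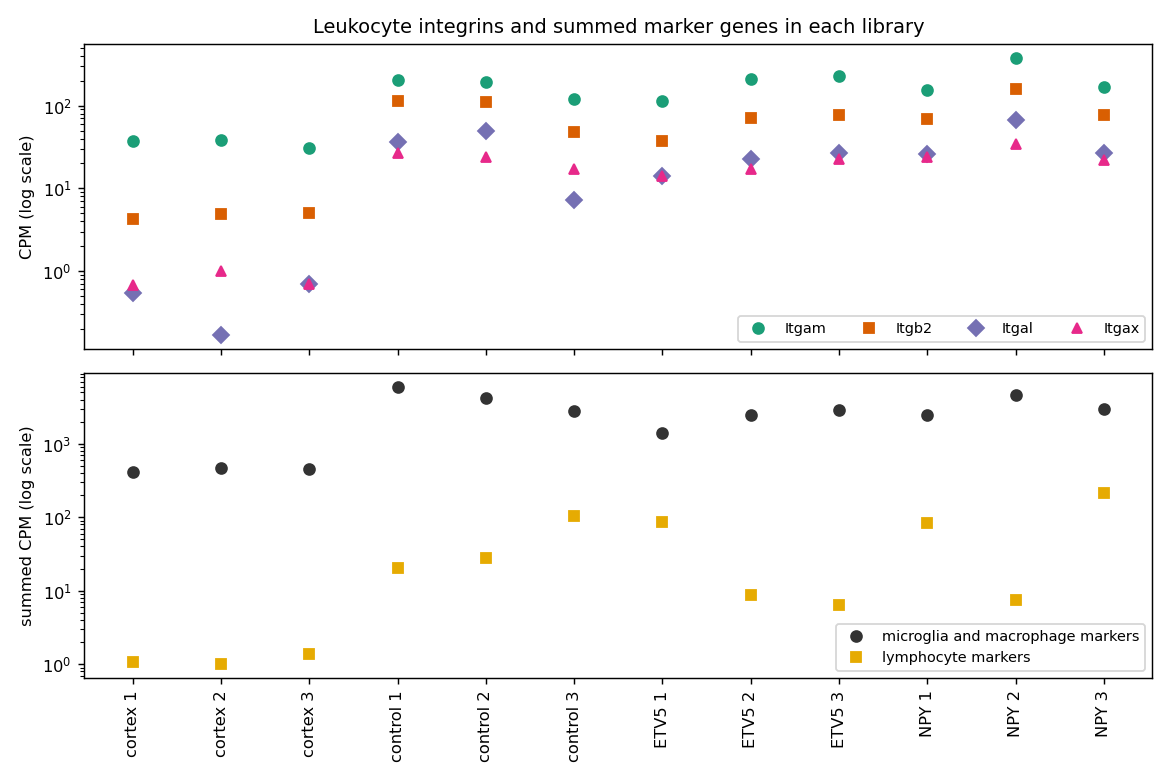
CPM of Itgam, Itgb2, Itgal and Itgax in each library (upper panel) and summed CPM of the macrophage and lymphocyte marker lists (lower panel), both on log axes. All 9 tumours lie above the 3 cortex libraries in both panels, and NPY replicate 2 has the highest level of each of the 4 subunits.

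Partners of the subunits are given from 3 lists of pathway genes. Of all genes tested between control tumours and cortex, 35.7% were called higher and 36.2% lower, with a median log2 fold change of -0.003. Of 16 partners in basement membranes, 15 were tested, 11 rose and 2 fell, with a median log2 fold change of 2.97. Col18a1, the collagen XVIII chain, was 163-fold higher (adjusted p = 1.59e-07), at 5.29 to 6.04 CPM in cortex and 818 to 1355 in control tumours. Hspg2 (perlecan) was 26.5-fold and Nid1 (nidogen, which bridges laminin and collagen IV) 23.9-fold higher. Npnt (nephronectin) was 3.02-fold and Fras1, an epithelial basement membrane protein, 2.21-fold lower. Of 23 integrin adaptors, 22 were tested, 13 rose and 4 fell, with a median of 0.80. Pxn (paxillin) was 13.3-fold, Fermt3 (the kindlin of blood cells) 9.84-fold and Tns1 (tensin) 7.39-fold higher. Ptk2b, a focal adhesion kinase abundant in neurons, was 6.02-fold, Tln2, the talin of brain and muscle, 3.51-fold and Lims2 1.59-fold lower. Of 22 integrin ligands, 17 were tested, 11 rose and 4 fell, with a median of 2.5. Spp1 (osteopontin) was 155-fold, Icam1, a ligand of Itgal and Itgam with Itgb2, 87.2-fold and Fn1 (fibronectin) 24.9-fold higher. Icam5, a ligand on neuronal dendrites, was 21.5-fold, Mfge8 3.98-fold and Tnr, an extracellular matrix protein of neural tissue, 3.06-fold lower. All 8 pan-neuronal and all 8 excitatory neuron markers also fell, and their part in these falls was not tested.

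The second comparison, ETV5 against control tumours, asks what added ETV5 changes in the tumour. By limma, 0 of the 33 members tested passed, as did 0% of all 14382 genes tested. At an unadjusted p under 0.05 there were 1 member and 944 genes. The edgeR quasi-likelihood test called 0 genes, and DESeq2 called 75 genes and 0 members. The log2 fold change was positive for 10 members and negative for 23, with a median of -0.23 against -0.02 for all genes. Its 95% interval lay within 2-fold in both directions for 11 of the 33, so that for the other 22 a 2-fold difference was not excluded by the interval.

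The member with the unadjusted p under 0.05 was Itga7, at 29.7, 43.7 and 29.5 CPM in control and 23.6, 22.6 and 22.1 in ETV5 tumours (log2 -0.57, SE 0.22, adjusted p = 0.732). Every ETV5 library was under every control library. Itga2 was the other member with no overlap, at 1.38, 2.42 and 2.07 CPM in control and 0.787, 0.598 and 1.06 in ETV5 tumours (adjusted p = 0.732). With ETV5 lower, 7.08% of all genes tested had groups that did not overlap, and with ETV5 higher 7.1%, where 0 members did. Lama1 had the largest difference, at 154, 51.6 and 38.1 CPM in control and 57.3, 4.04 and 13.2 in ETV5 tumours (log2 -2.2, 95% interval -4.56 to 0.15). ETV5 replicate 1 lay among the controls and the other 2 below them. Lamb1 was at 328, 69.2 and 161 CPM and Itgb4 at 20.3, 209 and 70.6 in ETV5 tumours. ETV5 replicate 2 was the lowest of the tumours for Lamb1 and the highest for Itgb4. Lama5 was at 184, 180.1 and 166 CPM in ETV5 tumours, within the range of the controls, and its interval was -0.23 to 0.79. Lamb3 did not pass the filter, with 2 reads in the 3 ETV5 libraries together and 11 in the controls, a ratio of CPM of 0.176 with an exact 95% interval of 0.019 to 0.807 for counting error. Microglia and macrophage markers summed to 1416 to 2887 CPM in ETV5 tumours, against 2778 to 5986 in control, and meningeal fibroblast markers to 1072 to 1509 against 2313 to 3124. Neutrophil markers went the other way, at 22.6 to 49.4 against 5.11 to 9.42 CPM. Of the markers tested in these lists, 10, 7 and 3 in that order, 0 passed.

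The third comparison, NPY against control tumours, asks the same of added NPY. By limma, 0 of the 33 members tested passed, against 5.04% of all 14425 genes tested (0.728% higher and 4.31% lower). The count of genes called, 727, was 138 without control replicate 1, 1 without control replicate 2 and 78 without control replicate 3. It was 125 without NPY replicate 1, 573 without NPY replicate 2 and 521 without NPY replicate 3. The count of members called stayed at 0. At an unadjusted p under 0.05 there were 3 members, Itgb1, Lama1 and Lamb2, and 3389 of all genes tested. The edgeR quasi-likelihood test called 0 members, against 4.75% of all genes. DESeq2 called 1, Lama1 (log2 -1.76, adjusted p = 0.0204), against 12.7% of all genes. DESeq2 made the most false calls of the 3 tools on simulated data, which need not hold for these data. The log2 fold change was positive for 16 members and negative for 17, with a median of -0.01 against 0.04 for all genes. The 95% interval lay within 2-fold in both directions for 12 of the 33.

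Lamb2 was at 100.4, 99 and 116 CPM in control and 64.6, 48.1 and 85 in NPY tumours (log2 -0.62, SE 0.21, limma, adjusted p = 0.145, the lowest of the members). All NPY libraries were under all controls. Lama1 was at 24.2, 13.1 and 31.4 CPM in NPY tumours, also under each control (log2 -1.55, SE 0.56, adjusted p = 0.164). Without control replicate 1, its log2 value was -0.96. Itgb1 was at 678, 740.2 and 613 CPM in control and 796, 936 and 783 in NPY tumours, above each control (log2 0.39, SE 0.15, adjusted p = 0.186). Itga3 was also above each control (66.8, 65.6 and 60.4 CPM), and Itga7 (6.31, 29.2 and 17.9) and Itgb5 (399.8, 439 and 425) were below each. In all, 2 members had NPY higher without overlap (11.1% of all genes tested) and 4 had NPY lower (18.4%). The NPY libraries all have the code prefix EC and the controls DS, so prefix and group cannot be told apart here. With the prefix as a term over the 9 tumour libraries, which rests on the ETV5 group having both prefixes, limma called 0 genes and 0 members, with 1322 genes at an unadjusted p under 0.05. In the pathway lists, 0 genes rose and 5 fell in NPY tumours. Of 15 basement membrane partners tested 1 fell, of 22 adaptors 2 and of 17 ligands 2, against 4.31% of all genes tested. All 5 were calls that the fit with the prefix lost. These were Icam5 (log2 -3.32, adjusted p = 0.0153), Vtn (vitronectin, -2.26, 0.028), Fras1 (-1.98, 0.0153), Lims2 (-1.53, 0.0483) and Tln2 (-1.12, 0.0308). In control tumours against cortex, a comparison that uses the same control libraries, their log2 fold changes were -4.43, -1.18, -1.14, -0.67 and -1.81 in that order. Pan-neuronal markers were lower in NPY tumours than in control, at 99.5 to 238 against 618 to 1340 CPM, and 4 of the 8 passed. Their part in these falls was not tested.

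The fourth comparison set ETV5 directly against NPY tumours. By limma, 0 of 32 members tested passed, as did 0% of 14023 genes, with 2 members and 831 genes at an unadjusted p under 0.05. The edgeR quasi-likelihood test called 0 genes, and DESeq2 called 56 genes and 0 members. The 2 members were Lamb2, at 129.6, 127 and 90.1 CPM in ETV5 and 64.6, 48.1 and 85 in NPY tumours (log2 0.77, adjusted p = 0.794), and Itga4. Itga4 was at 16.8, 16.7 and 21.4 CPM in ETV5 and 23.7, 40.4 and 24.9 in NPY tumours (log2 -0.72, adjusted p = 0.794). These were also the 2 members whose groups did not overlap, against 7.47% of all genes with ETV5 higher and 4.98% with ETV5 lower. The 95% interval lay within 2-fold in both directions for 6 of the 32 members. The ETV5 and NPY comparisons share their control libraries. ETV5 replicates 1 and 2 have the code prefix DS, while ETV5 replicate 3 and all NPY libraries have EC. For both Lamb2 and Itga4, ETV5 replicate 3 was the ETV5 library nearest to the NPY levels. With the prefix as a term, limma called 0 genes, and 0 members had an unadjusted p under 0.05. ETV5 replicate 3 alone shares its prefix with NPY, so that fit cannot tell prefix from group for these members.

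**Figure D5:**
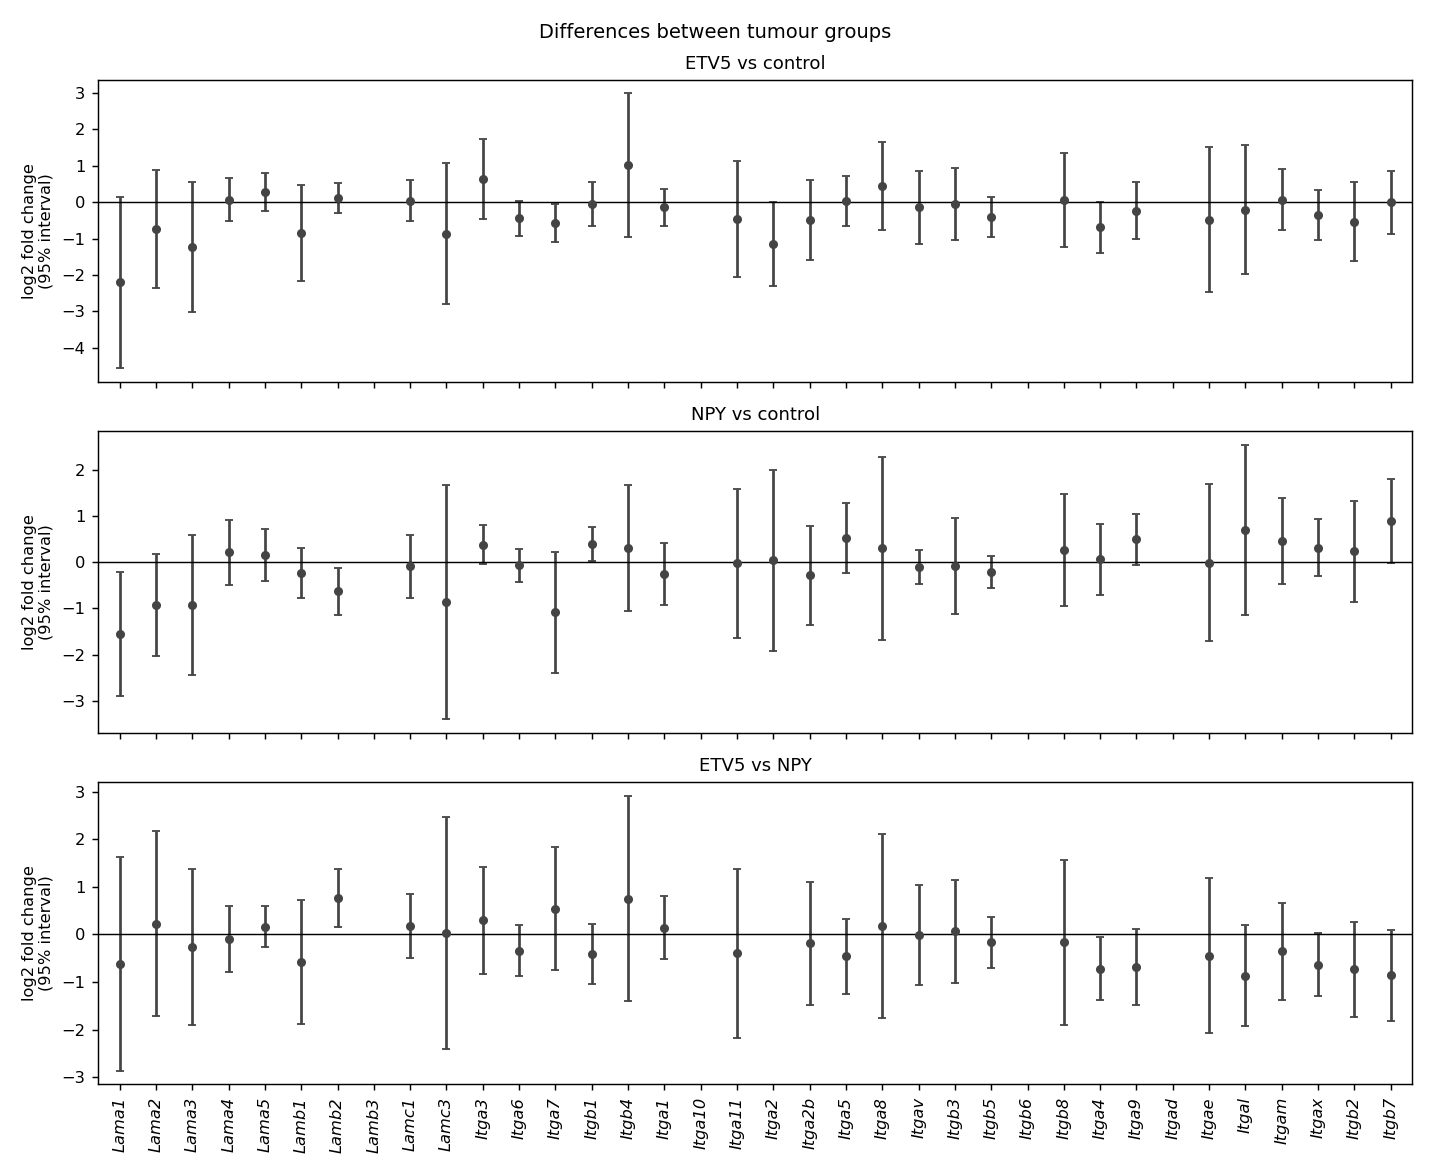
Log2 fold change with its 95% interval for the tested members shown in the 3 comparisons between tumour groups (3 libraries a group), with a gap where a member was not tested. Most intervals cross 0, and wide ones belong to Lama1, Lamc3 and Itgb4.

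The other leading members, by role, had these levels in the ETV5 and NPY tumours, and 0 of them passed against control. Among laminin chains, Lama4 was at 158, 108 and 116 CPM in ETV5 tumours (95% interval of the log2 fold change over control -0.52 to 0.67) and 88.8, 153 and 158 in NPY tumours (-0.5 to 0.92). Lamc1 was at 331, 313 and 227 CPM in ETV5 (-0.52 to 0.62) and 174, 327 and 255 in NPY tumours (-0.78 to 0.6). Both stayed near the control range of 91.1 to 155 and 225 to 357 CPM. Lamc3 was at 74.5, 26.5 and 114 CPM in ETV5 and 18.9, 249 and 39.5 in NPY tumours, so that each tumour group held both high and low libraries. Among integrins, Itga5 was at 252, 206 and 343 CPM in ETV5 (-0.66 to 0.71) and 297, 515 and 265 in NPY tumours (-0.22 to 1.27). Itga9 was at 221, 123 and 255 and 291, 369 and 238 CPM (-1.01 to 0.55 and -0.06 to 1.04). In NPY tumours both genes peaked in replicate 2. Itgav was at 409.7, 152 and 443 CPM in ETV5 and 308, 327 and 244 in NPY tumours, and ETV5 replicate 2 stood apart below all other tumours. Itga6 was at 111, 71.7 and 74.7 CPM in ETV5 (-0.92 to 0.03) and 94.2, 98.1 and 116 in NPY tumours (-0.42 to 0.29), a narrow range. Of the leukocyte subunits, Itgam was at 114, 212 and 228 CPM in ETV5 (-0.78 to 0.92) and 156, 378 and 170.3 in NPY tumours (-0.48 to 1.39). Itgb2 was at 37.3, 71.3 and 77.1 and 68.9, 158 and 76.3 CPM (-1.62 to 0.55 and -0.86 to 1.32). Both were lowest in ETV5 replicate 1 and highest in NPY replicate 2. The macrophage marker sums in the same order were 1416, 2489 and 2887 CPM in ETV5 and 2448, 4657 and 2950 in NPY tumours, also lowest in ETV5 replicate 1, and their part in these levels was not tested.

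The tumours varied widely among themselves in these genes, within groups as well as between them. Over the 9 tumour libraries, 29 members had a median of at least 5 CPM, and the ratio of their highest to lowest library had a median of 3.31, against 2.05 for the 12146 genes at that level. It was over 5-fold for 10 of the 29 members, against 14.5% of all such genes. It was under 2-fold for 4, Itgb5, Itga6, Lama4 and Lama5, against 47.9% of all such genes. Lama1 had the widest range of the 29, 38.1-fold, from 4.04 CPM in ETV5 replicate 2 to 154 in control replicate 1. Lamc3 ranged from 18.9 CPM in NPY replicate 1 to 249 in NPY replicate 2. ETV5 replicate 2 was the lowest tumour for 9 of the 29 members (31%, against 14.4% of all such genes). NPY replicate 2 was the highest for 11 (37.9%, against 20.1%) and the lowest for 5 (17.2%, against 21.1%), and control replicate 2 was the highest for 7 (24.1%, against 4.76%). The other 6 libraries were the lowest for at most 5 members and the highest for at most 3. Among others, NPY replicate 2 had the highest Itgam, Itgb2, Itgal, Itgax, Itgb7, Itga4, Itga5, Itga9, Itgb1 and Lamc3, and the lowest Lama2, Lamb2, Itga1, Itga8 and Itgb3. Its macrophage marker sum, 4657 CPM, was the second highest of the 9 tumours, and its endothelial sum, 162 CPM, was the lowest. Control replicate 1 had the highest macrophage sum, 5986 CPM, with Itgam at 201 CPM against 378 in NPY replicate 2. The part of these cells in its levels was not tested.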

How the data were processed

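RNA was measured in 12 mouse libraries. Per the labels' protocols, 300 ng of total RNA was made into paired-end TruSeq Stranded mRNA libraries. Per the submitters' processing notes, the build was mm10 and the tools included STAR 2.5.0a and DESeq2 1.30.1, with FastQC 0.11.7 and MultiQC 1.6. For the counting tool and gene models, these sources give no name. The authors deposited 2 tables of a normalized signal: cortex, control and ETV5 in the first, control and NPY in the second. Dividing by the size of 1 read in that library recovered whole reads within 0.01 read for 100% of values, and the controls held the same reads in both tables.

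The deposited values were tested as log2(value + 1) with limma 3.58.1 (trend and robust moderation, R 4.3.3), two-sided, with group as the sole term and only the 2 groups compared. Fold changes are on that scale, which understates those of low genes. Genes passed the filter of edgeR 4.0.16 (at its depth-adjusted default of 10 reads in each of 3 libraries and a sum of 15). Adjusted p-values are Benjamini-Hochberg over all genes tested, called under 0.05. On simulated data, the share of false calls was above 0.05 for limma, edgeR and DESeq2 in all 4 comparisons, and highest for DESeq2. Calls near the threshold may therefore be less firm than their adjusted p states. The simulation changed a small set of genes by fixed folds, whereas 72% of genes were called between control tumours and cortex. Its shares of false calls therefore need not hold for these data. ETV5 and NPY were compared on recovered reads that were scaled anew over the 9 tumours (median of ratios). Count tests on recovered reads (edgeR, DESeq2 1.42.0) were alternatives, with other pseudocounts, filters, scalings, designs and left-out libraries. Intervals of read ratios and floors cover counting error only.

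Positions are from GENCODE M21 (GRCm38, the build mm10), which held all 37 members. For 14 of them, exons of another gene overlap, so reads may be shared: Itga1, Itga10 and Itgam with a gene on the same strand, and Itga4, Itga7, Itga8, Itga9, Itgad, Itgav, Itgb4, Lama2, Lama3, Lamb3 and Lamc3 with one on the opposite strand or both. Per-kilobase levels divide by the union of a gene's exons. The members, lists and tests were chosen with earlier results of these data known. Values in every library are given for members called without overlap at a mean of at least 5 CPM in a group, for the 2 most abundant of each role, and for some others chosen after their values were seen. Pathway genes named are up to 3 called per direction at that level. Marker sums leave out member genes. The counts cover all 37 members, and the values of 1 of them are not reported here.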

Additional observations from a re-analysis of the deposited data

How the results depend on the processing

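Of the 26 members called between control tumours and cortex, 25 kept their call under all 16 alternatives, Itga4 being the exception. Leaving out 1 library gave 25 to 29 members called and 9595 to 10683 genes. Members not called there turned sign in 5 cases. With 1 library left out, the log2 value of Itgb3 ran from -0.22 (without control replicate 2; -0.11 without cortex replicate 3) to 0.35. That of Lama3 ran from -0.32 (without control replicate 3) to 0.77, and that of Itga2b from -0.39 to 0.23 (without cortex replicate 3; 0.09 without control replicate 3). Itgb4 passed with DESeq2, with the replicate block and without control replicate 2, Itgb8 without cortex or control replicate 3, and Lama2 without control replicate 3. The log2 fold change of Itga2 was 1.75 with a pseudocount of 5 and 4.21 with DESeq2, of Itgal 4.38 and 5.90, and that of Lamb3 -1.59 with a pseudocount of 5.

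DESeq2 called 75 genes for ETV5 and 1833 genes and 1 member for NPY against control, and 56 between ETV5 and NPY, against 0, 727, 0 and 0 with limma. Genes called for NPY against control were 0 with the library code prefix as a term and 1 to 573 with 1 library left out. They were 138 without control replicate 1, 1 without control replicate 2 and 78 without control replicate 3. Without NPY replicate 1 they were 125, without NPY replicate 2 573 and without NPY replicate 3 521. Between ETV5 and NPY, 1 gene was called with no filter and 1 with all libraries in 1 fit, and 0 to 1 with 1 library left out, the 1 without NPY replicate 2. In each of these 3 comparisons, leaving out 1 library called 0 members. The cause was not tested.

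With the replicate number as a block, 27 members passed between control tumours and cortex, and 264 genes for NPY against control. Deviations of same-numbered libraries correlated at -0.42 to 0.38 across genes, and of others at -0.54 to 0.51, so the numbers were not treated as pairs. At these depths, members under a few CPM (Itga2, Itga2b, Itga10, Itgad, Itgae, Itgb6, Lamb3) rest on few reads. With 3 libraries a group, most intervals between tumour groups reach beyond 2-fold.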
